A study of Mus musculus with 28 samples.

Results

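Amino acid transporter genes were followed in cultured mouse macrophages that lacked the transcription factor Nrf2, that received RA839, or in which Keap1 was knocked down. The set was defined by gene name, with earlier results of these data known. It takes every gene on the array whose symbol begins with Slc1a, Slc6a, Slc7a, Slc36a, Slc38a or Slc43a, leaving out Slc7a11 and Slc6a9, and uses 1 probe set per gene, the one whose mean across the 28 arrays was highest. This gave 59 genes of 18193, with 7 Slc1a, 20 Slc6a, 15 Slc7a, 5 Slc36a, 9 Slc38a and 3 Slc43a members. The name covers more than amino acid carriers: 8 members are known for another cargo or are transcripts named after a carrier, namely the noradrenaline carrier Slc6a2, the dopamine carrier Slc6a3, the serotonin carrier Slc6a4, the creatine carrier Slc6a8, the purine nucleobase carrier Slc43a3, and the transcripts Slc7a6os, Slc36a1os and Slc6a19os, named after a neighbouring carrier.

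The macrophages were derived from bone marrow; the C57BL/6 J donors were 12 weeks old. In the compound experiment, Nrf2-/- macrophages (KO) received RA839 or only its solvent DMSO, and so did Nrf2+/+ macrophages (WT), with DMSO at 0.2% in every group and 4 h of incubation. In the siRNA experiment, Nrf2+/+ macrophages received 1 of 2 siRNAs against Keap1, siKeap1-1 or siKeap1-2, or the control siRNA siControl. Each of the 7 groups held 4 arrays. The dose of RA839, the siRNA sequences, the time after transfection and the part of the Nrf2 gene that is missing are unknown here.

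A cell takes up amino acids through carriers of overlapping cargo. Some bring in cationic amino acids such as arginine (Slc7a1, Slc7a2), some exchange large neutral amino acids (Slc7a5, Slc7a8, each paired with the heavy chain Slc3a2), some take up glutamine, alanine or serine with sodium (Slc1a4, Slc1a5, Slc38a2), and some move small amino acids with protons (Slc36 family). Macrophages use arginine to make nitric oxide or polyamines, and cystine and glycine to make glutathione. Nrf2 is a transcription factor of antioxidant defence, and Keap1 is the adaptor protein that directs its degradation. RA839 is a small molecule that binds Keap1.

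All values are deposited log2 values, so a difference of 1 is a doubling of the array signal, and every difference is given ± standard error with n = 4 arrays per group. Group means carry the standard deviation (SD). A member passed the test at a limma adjusted p under 0.05 over all 18193 genes. The compound arrays had medians of 5.61 to 5.71 and the siRNA arrays of 5.91 to 5.96, so levels were compared only within an experiment. The targeted genes followed the labels: Nfe2l2, which encodes Nrf2, averaged 3.27 ± 0.08 in KO cells with RA839 and 3.40 ± 0.11 in KO cells with DMSO, against 12.30 ± 0.32 in WT cells with RA839 and 12.72 ± 0.20 in WT cells with DMSO. Keap1 averaged 9.06 ± 0.09 with siKeap1-1 and 9.26 ± 0.15 with siKeap1-2, against 11.09 ± 0.10 with siControl. The 13 macrophage markers had a mean level of 11.69 to 12.87 on every array, while the lists for 7 other cell types lay between 4.44 and 7.48.

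A few arrays stood apart. The KO arrays numbered 1 and 2 differed from those numbered 3 and 4 under both treatments: 27 of the 59 members (45.8%) and 37.4% of all genes separated these pairs without overlap and in the same direction in both KO groups. In the siRNA experiment, array 4 of every group carried the Y-linked Eif2s3y at 12.67 to 12.70, against 3.56 to 3.93 on arrays 1 to 3, and Xist, made from the inactive X chromosome, at 4.16 to 5.13, against 11.83 to 12.22. These genes were chosen after their values were seen, and the labels used here give no sex. The arrays numbered 4 were spread evenly over the siRNA groups. In WT cells with RA839, array 2 had a Gapdh signal 3.74 higher at the 3′ end than at the 5′ end, against 0.77 to 1.00 on the other compound arrays. Values without these arrays are given beside results that rest on them.

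The members spanned nearly the whole range of the array. The 5 with the highest mean over the 28 arrays were Slc36a4 (13.53), Slc7a1 (13.43), Slc38a6 (13.29), Slc6a8 (13.07) and Slc38a1 (12.81). The 5 with the lowest were Slc6a20a (2.69), Slc6a15 (2.76), Slc38a5 (2.91), Slc7a12 (2.96) and Slc7a9 (3.23). These levels come from different probes and give no order of RNA amount between genes. In the compound experiment 25 members lay above the median gene mean of 7.40 and 34 below it, and in the siRNA experiment 26 lay above 7.65 and 33 below it. No filter on low values was applied, so all 59 were tested. Over 8 comparisons, 28 members passed the test at least once and 31 never did.

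**Figure D1:**
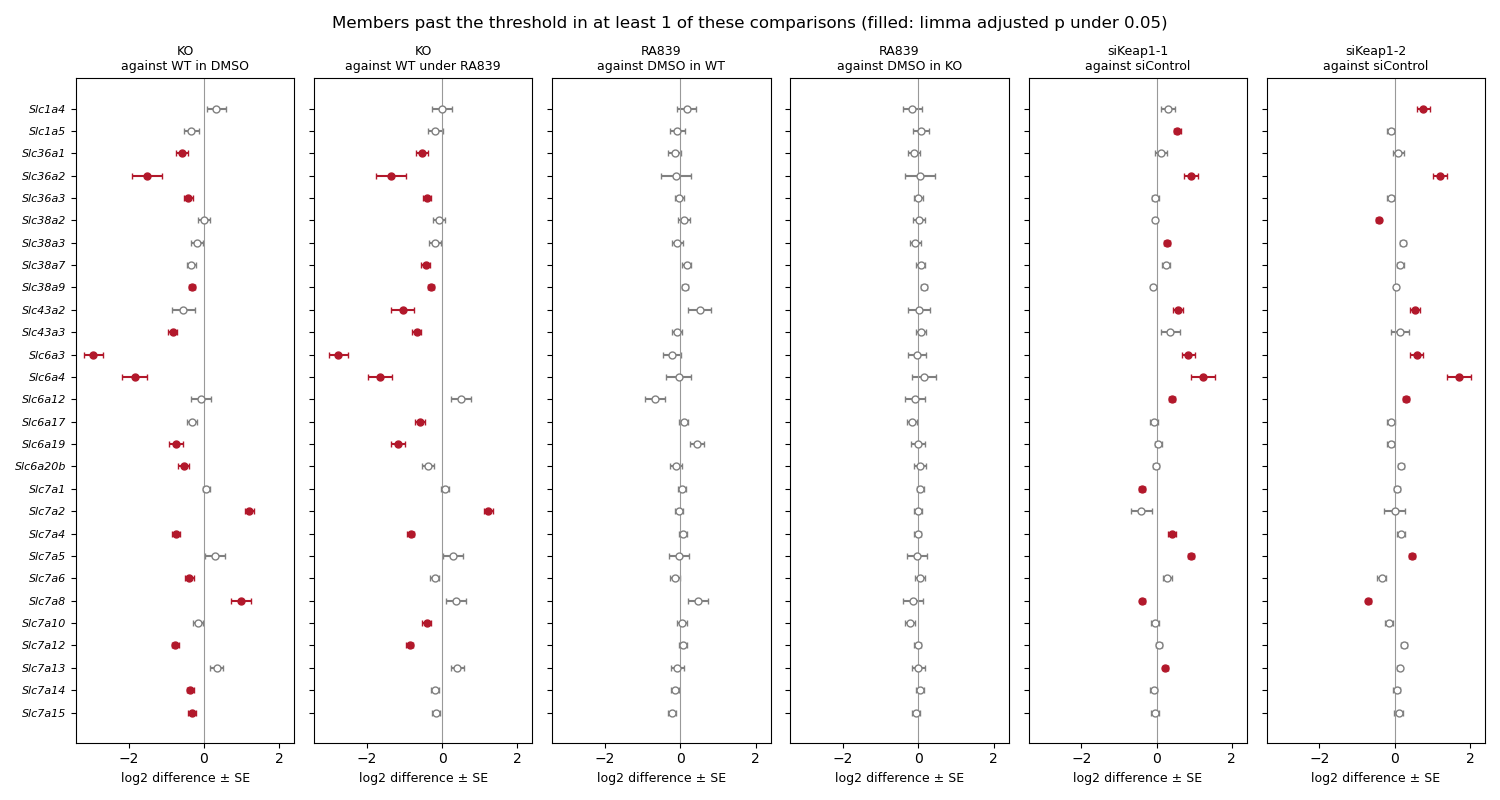
Log2 difference ± standard error (x axis) of the 28 members that passed the test in at least 1 of 8 comparisons (rows), in 6 of them (panels, n = 4 arrays per group). Filled points passed at a limma adjusted p under 0.05. The panels of KO against WT hold 14 filled falls each, the panels of RA839 hold no filled point, and the panels of siKeap1-1 and siKeap1-2 hold 10 and 7 filled rises.

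Loss of Nrf2 was compared first in DMSO. KO cells had lower levels of 14 members and higher levels of 2, and the other 43 did not pass the test. Of all genes, 13.8% were called lower and 11.2% higher (25.1% in either direction), against 23.7% and 3.39% of members (27.1% in either direction). The total share called was close to that of all genes, and the calls leaned further towards falls. The median difference was -0.153 over the members and -0.019 over all genes. Without array 2 of the WT cells with DMSO the members' median was -0.249. Without KO arrays 1 and 2, 11 members were lower and 6 higher (all genes 10.9% and 8.31%), and without KO arrays 3 and 4, 10 were lower and 1 higher (all genes 9.18% and 7.38%). Without both WT arrays numbered 2, 16 were lower and 3 higher (all genes 16.3% and 14.1%). Among the 51 members left when the 8 named at the start are set aside, 11 were lower and 2 higher with all arrays. Slc7a4, whose activity is unclear, is kept among the 51. None of the 7 Slc1a members passed, while 3 of 5 Slc36a members fell. The 4 KO arrays lay wholly below the 4 WT arrays for 15 members and wholly above for 2, against 15.5% and 14.1% of all genes.

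The largest fall was in Slc6a3, the plasma membrane carrier for dopamine. It had 3.18, 3.48, 3.26 and 3.43 in KO cells with DMSO, against 6.25, 5.68, 6.57 and 6.60 in WT cells with DMSO. With RA839 it had 3.46, 3.12, 3.33 and 3.26 in KO cells, against 6.12, 5.26, 6.69 and 6.12 in WT cells. All 8 KO arrays lay at the dim end of the array's range and below all 8 WT arrays. The difference between KO and WT was -2.94 ± 0.24 in DMSO, a 7.66-fold lower signal (limma adjusted p = 7.96e-07), and -2.76 ± 0.24 under RA839 (limma adjusted p = 8.94e-07). Because the KO values sit where probe sets hardly respond, the fold may understate the difference.

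Slc6a4, the serotonin carrier, followed with 6.21, 6.24, 6.44 and 7.24 in KO cells with DMSO, against 8.12, 8.60, 7.71 and 9.09 in WT cells with DMSO. With RA839 the KO arrays gave 6.11, 6.46, 6.87 and 7.25, against 8.35, 8.37, 7.75 and 8.86 on the WT arrays. The genotypes did not overlap under either treatment. The difference was -1.84 ± 0.32 in DMSO, or 3.59-fold lower (limma adjusted p = 0.000735), and -1.66 ± 0.32 under RA839 (limma adjusted p = 0.00134).

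The Slc36 carriers take small amino acids such as glycine, alanine and proline across the plasma membrane or out of lysosomes together with protons. Slc36a2 had 11.71, 11.58, 10.27 and 10.02 in KO cells with DMSO, against 12.18, 12.26, 12.48 and 12.70 in WT cells with DMSO. With RA839 the values were 11.69, 11.62, 10.15 and 10.24 in KO cells, against 12.03, 12.21, 12.32 and 12.62 in WT cells. Every KO array was below every WT array, but KO arrays 3 and 4 were lower than KO arrays 1 and 2 by 1.48 on average over both treatments. The difference was -1.51 ± 0.40 in DMSO (2.85-fold lower, limma adjusted p = 0.0119) and -1.37 ± 0.40 under RA839 (limma adjusted p = 0.0170). Without KO arrays 3 and 4 the difference was smaller and still called, -0.76 in DMSO (limma adjusted p = 0.0119) and -0.64 under RA839 (limma adjusted p = 0.0217). Without KO arrays 1 and 2 it was -2.26 and -2.10. Leaving out only array 3 or only array 4 of the KO cells with RA839 ended the call under RA839, with limma adjusted p-values up to 0.0573.

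Slc36a1, which exports amino acids from lysosomes, had 11.02, 10.80, 10.31 and 10.31 in KO cells with DMSO, against 11.18, 11.15, 11.15 and 11.27 in WT cells with DMSO. The difference was -0.58 ± 0.16 (limma adjusted p = 0.0156), and it rested on KO arrays 3 and 4: without both it was -0.28 and no longer passed (limma adjusted p = 0.0938). Leaving out either one alone also ended the call, with limma adjusted p-values up to 0.0556. Under RA839 the difference was -0.55 ± 0.16 (limma adjusted p = 0.0178). The third family member that fell in DMSO was Slc36a3, by 0.42 on the log2 scale.

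In the Slc43 family, Slc43a3 fell under both treatments and Slc43a2 under RA839. Slc43a3, the purine nucleobase carrier, had 8.67, 9.14, 8.76 and 8.95 in KO cells with DMSO, against 9.71, 9.67, 9.91 and 9.57 in WT cells with DMSO. The difference was -0.83 ± 0.12 (limma adjusted p = 0.000218), and -0.68 ± 0.12 under RA839 (limma adjusted p = 0.000877). Slc43a2, which carries large neutral amino acids out of or into cells without sodium, had 12.41, 12.34, 11.26 and 11.18 in KO cells with DMSO, against 12.34, 12.10, 12.57 and 12.38 in WT cells with DMSO. KO arrays 1 and 2 lay within the WT values and arrays 3 and 4 more than 1 log2 unit below KO arrays 1 and 2, and the difference of -0.55 ± 0.30 did not pass (limma adjusted p = 0.203). Under RA839 it had 12.39, 12.34, 11.27 and 11.25 in KO cells, against 12.70, 13.08, 12.83 and 12.83 in WT cells. Here the groups did not overlap, and the difference of -1.05 ± 0.30 passed (limma adjusted p = 0.0168). Without KO array 3 or KO array 4 of the RA839 group it lost the call, with limma adjusted p-values up to 0.0575, and without both of these numbers in both KO groups it was -0.50 with a limma adjusted p of 0.0241.

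Several dim members of the Slc6a and Slc7a families also fell. Slc6a19, the sodium-coupled neutral amino acid carrier of gut and kidney, had 4.28, 3.70, 4.51 and 4.03 in KO cells with DMSO, against 4.94, 4.97, 4.79 and 4.81 in WT cells with DMSO, a difference of -0.74 ± 0.19 (limma adjusted p = 0.00915). Under RA839 its 4 KO arrays lay between 4.09 and 4.16 and its WT arrays between 4.70 and 5.73, a difference of -1.19 ± 0.19 (limma adjusted p = 0.000261). In DMSO the call was lost without KO arrays 1 and 2 (-0.60, limma adjusted p = 0.0942). Slc7a12, a neutral amino acid carrier known from kidney, had 2.4, 2.52, 2.53 and 2.55 in KO cells with DMSO, against 3.17, 3.29, 3.35 and 3.25 in WT cells with DMSO. That is a difference of -0.77 ± 0.10 (limma adjusted p = 5.05e-05) at the lower end of what the array can measure, and it was -0.86 ± 0.10 under RA839 (limma adjusted p = 1.12e-05).

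Slc7a4, a relative of the cationic carriers whose own transport activity is unclear, had 7.41, 7.20, 7.18 and 7.21 in KO cells with DMSO, against 8.0, 8.14, 8.03 and 7.77 in WT cells with DMSO. The difference was -0.74 ± 0.10 (limma adjusted p = 0.000118), and -0.84 ± 0.10 under RA839 (limma adjusted p = 2.47e-05). A second probe set of the gene fell by 1.18 in DMSO and by 1.36 under RA839. The other 6 members called lower in DMSO were Slc6a20b, Slc36a3, Slc7a6, Slc7a14, Slc38a9 and Slc7a15, with differences of -0.55 to -0.31. For Slc7a6, which exchanges cationic for neutral amino acids, a second probe set went the other way, with a difference of 0.66 (limma adjusted p = 0.000546), so no direction is given for that gene.

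**Figure D2:**
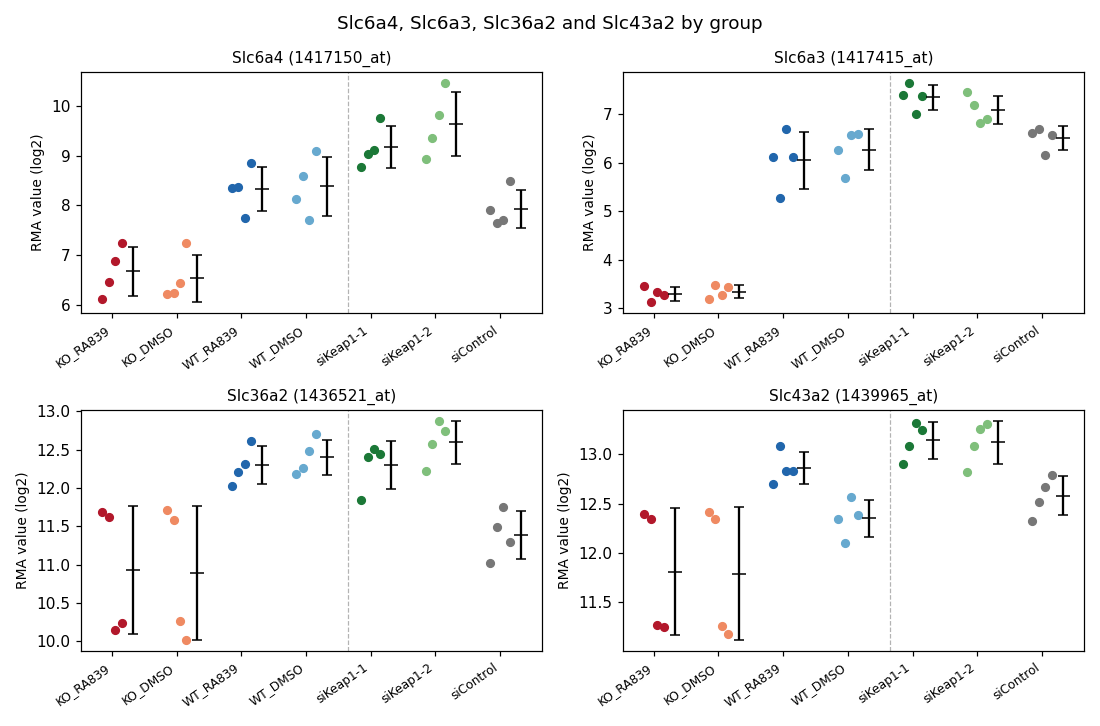
Deposited log2 value (y axis) of Slc6a4, Slc6a3, Slc36a2 and Slc43a2 on each array, by group, with arrays 1 to 4 of a group side by side and black bars for mean ± SD (n = 4). The dashed line separates the compound from the siRNA experiment, between which levels cannot be compared. Slc6a3 lies at 3.12 to 3.48 on all 8 KO arrays and at 5.26 to 6.69 on the WT arrays, and the KO arrays of Slc36a2 and Slc43a2 fall into pairs.

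Slc7a2 was higher in KO cells. It encodes the cationic carrier that supplies arginine to activated macrophages, and it had 11.40, 11.46, 11.74 and 11.66 in KO cells with DMSO, against 10.20, 10.61, 10.20 and 10.43 in WT cells with DMSO. With RA839 the KO arrays gave 11.46, 11.34, 11.77 and 11.65, against 10.30, 10.42, 10.26 and 10.32 on the WT arrays. All 8 KO arrays lay above all 8 WT arrays. The difference was 1.21 ± 0.12 in DMSO, or 2.31-fold higher (limma adjusted p = 3.95e-06), and 1.23 ± 0.12 under RA839 (limma adjusted p = 1.99e-06). Its 4 probe sets were all higher in KO cells, by 0.88 to 1.36 in DMSO, and the call held without KO arrays 1 and 2 (1.34) and without KO arrays 3 and 4 (1.07).

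Slc7a8, an exchanger of neutral amino acids, was the other member called higher in KO cells with DMSO. It had 8.27, 8.40, 9.13 and 8.83 there, against 7.53, 7.79, 8.06 and 7.31 in WT cells with DMSO, a difference of 0.99 ± 0.26 (limma adjusted p = 0.0126). Without KO arrays 3 and 4 the difference was 0.67 and did not pass (limma adjusted p = 0.158). Under RA839 the values were 8.08, 8.46, 8.87 and 8.67 in KO cells, against 7.74, 8.91, 8.23 and 7.71 in WT cells. The groups overlapped there, with the WT value of 8.91 on the array with the large Gapdh 3′ to 5′ difference, and the difference of 0.37 ± 0.26 did not pass (limma adjusted p = 0.307).

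The bright carriers of glutamine, neutral amino acids and arginine that many cells use did not pass in either comparison of genotypes with all arrays. Slc7a5 differed by 0.29 ± 0.27 in DMSO (limma adjusted p = 0.472), Slc7a1 by 0.06 ± 0.10 (limma adjusted p = 0.694) and Slc38a2 by 0.00 ± 0.16 (limma adjusted p = 0.992). For Slc1a4 the difference was 0.32 ± 0.26 (limma adjusted p = 0.387) and for Slc1a5 -0.34 ± 0.21 (limma adjusted p = 0.257). These values average over the pairs of KO arrays. Slc7a5 had 9.31, 9.70, 10.49 and 10.45 in KO cells with DMSO, against 9.59, 9.80, 9.48 and 9.92 in WT cells with DMSO, so KO arrays 1 and 2 overlapped WT and arrays 3 and 4 lay above it. Slc1a4 had 9.91, 10.02, 11.01 and 10.87 in KO cells with DMSO, against 10.17, 9.99, 10.04 and 10.31 in WT cells with DMSO. Without KO arrays 1 and 2, Slc7a5 was higher in KO cells by 0.77 in DMSO (limma adjusted p = 0.00749) and by 0.72 under RA839 (limma adjusted p = 0.00971), and Slc1a4 by 0.81 in DMSO (limma adjusted p = 0.00625). Without KO arrays 3 and 4, the uncalled differences in DMSO had the other sign for Slc7a5 (-0.19), Slc1a4 (-0.16) and Slc7a1 (-0.10), and so did Slc7a5 under RA839 (-0.15). The Slc1a5 difference in DMSO was then -0.69 (limma adjusted p = 0.0176), lower in KO cells.

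Slc38a2, a sodium-coupled carrier of glutamine and alanine, showed the same pairs, with 12.15, 12.27, 12.88 and 12.82 in KO cells with DMSO, against 12.57, 12.69, 12.38 and 12.50 in WT cells with DMSO. KO arrays 1 and 2 lay below every WT array and KO arrays 3 and 4 above every one. Which pair is kept therefore set the direction for Slc38a2 in DMSO: the difference was 0.32 without KO arrays 1 and 2 (limma adjusted p = 0.0486) and -0.33 without KO arrays 3 and 4 (limma adjusted p = 0.0700). The choice of probe set also changed its sign. With all arrays and the mean of all probe sets it was 0.24 in DMSO (limma adjusted p = 0.163). Under RA839 it was then 0.31 (limma adjusted p = 0.058), in place of -0.08. The largest gaps between these pairs among members, averaged over both treatments, were 1.48 for Slc36a2, 1.47 for the cationic carrier Slc7a3, 1.29 for the GABA carrier Slc6a13, 1.13 for Slc43a2, 0.92 for Slc7a5 and 0.86 for Slc1a4. Slc36a2, Slc6a13 and Slc43a2 were higher on arrays 1 and 2, and Slc7a3, Slc7a5 and Slc1a4 on arrays 3 and 4. The labels do not say what the arrays of a pair share, and its part in the results was not tested.

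Under RA839 the comparison of genotypes gave 14 members lower and 1 higher in KO cells (25.4% of members), against 30.4% of all genes called (14.6% higher, 15.8% lower). The KO arrays lay wholly below the WT arrays for 16 members and wholly above for 1, against 16% and 14.9% of all genes. By the test, 11 members were lower and 3 higher without KO arrays 1 and 2 (all genes 11.7% and 10.2%). Without KO arrays 3 and 4, 11 were lower and 1 higher (all genes 11.2% and 10.3%). Without both WT arrays numbered 2, 14 were lower and 2 higher (all genes 15% and 15.6%). The median difference was -0.153 over members and -0.009 over all genes. Beside the members described above, the other falls were Slc6a17, Slc36a1, Slc38a7, Slc7a10, Slc36a3 and Slc38a9, with differences of -0.58 to -0.30. For Slc6a17 and Slc38a9 among these, another probe set was called higher in KO cells. Markers of other cells were counted between genotypes in DMSO, where 25.1% of all genes were called. In KO cells 5 of 10 fibroblast markers (50%) and 3 of 11 neutrophil markers (27.3%) were lower and none higher. Of 6 T cell markers 2 were lower (33.3%), and 1 of 7 mast cell and 1 of 7 dendritic cell markers were higher (14.3% each). Apart from the fibroblast list, these shares lay near or below that of all genes. None of 5 B cell and none of 6 erythroid or megakaryocyte markers passed in DMSO. The summed log2 level of the fibroblast list was 45.5 to 47.0 in KO cells with DMSO and 47.0 to 51.6 in WT cells with DMSO. Of 13 macrophage markers, 2 were higher and 2 lower (30.8%). Under RA839, where 30.4% of all genes were called, the macrophage, fibroblast and T cell lists gave the same counts. There 2 of 11 neutrophil markers were lower (18.2%). Of the mast cell markers 1 was higher and 1 lower, and 1 B cell and 1 erythroid or megakaryocyte marker were higher. On bulk arrays fewer cells of a type and less RNA per cell cannot be told apart, and the part of these markers in the members' differences was not tested.

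The start regions of Slc6a4, Slc6a3 and Slc36a1 are shown because all 3 genes were lower in KO cells and Nrf2 binds a short motif, the antioxidant response element. The sequences are RefSeq's for GRCm38.p6, on the plus strand, 5′ to 3′, running over 280 bases with 250 before the annotated start. Capitals mark a match to the element's core TGACNNNGC, searched on both strands.
Slc6a4, chr11:76998347-76998626: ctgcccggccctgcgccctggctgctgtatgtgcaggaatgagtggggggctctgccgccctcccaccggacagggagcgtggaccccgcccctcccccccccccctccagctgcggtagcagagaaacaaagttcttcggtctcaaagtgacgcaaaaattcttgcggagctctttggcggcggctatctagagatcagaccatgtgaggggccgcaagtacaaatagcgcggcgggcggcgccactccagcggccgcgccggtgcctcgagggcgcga
Slc6a3, chr13:73536497-73536776: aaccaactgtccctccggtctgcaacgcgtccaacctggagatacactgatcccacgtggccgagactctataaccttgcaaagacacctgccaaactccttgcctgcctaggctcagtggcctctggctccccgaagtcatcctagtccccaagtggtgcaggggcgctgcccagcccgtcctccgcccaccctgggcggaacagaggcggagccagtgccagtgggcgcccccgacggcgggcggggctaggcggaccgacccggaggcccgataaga
Slc36a1, chr11:55204090-55204369: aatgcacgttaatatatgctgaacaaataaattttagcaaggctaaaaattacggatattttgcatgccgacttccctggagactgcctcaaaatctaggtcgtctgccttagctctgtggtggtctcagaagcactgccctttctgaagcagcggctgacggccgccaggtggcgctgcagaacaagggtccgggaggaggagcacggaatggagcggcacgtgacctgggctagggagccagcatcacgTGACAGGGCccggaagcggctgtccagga
The core occurred once in the Slc36a1 window, just after the start, and in neither of the others. Over the full RefSeq windows, which run 20 bases further, TGACNNNGC was found in 10 of 61 member windows (16.39%), against 4071 of 32851 windows of all genes (12.39%). The members holding it were Slc36a1, Slc36a1os, Slc38a2, Slc43a1, Slc6a11, Slc6a13, Slc6a16, Slc7a1 and Slc7a6. A second motif, TGATGNAA, through which C/EBP and ATF proteins act when amino acids are short, was found in 4 member windows (6.56%), those of Slc1a4, Slc6a21 and Slc7a7, against 3.97% of all windows. In all, 42 members had a window, and these matches describe letters only.

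RA839 was then compared with DMSO within each genotype. No member passed the test in WT cells (0 of 59 with limma; 0.66% of all genes did, 0.572% higher and 0.0879% lower), and 3 members (5.08%) had an unadjusted p under 0.05, against 10.4% of all genes. In KO cells no member passed with limma, as was so for all genes (0%), and 0 members had an unadjusted p under 0.05, against 1.76% of all genes. The difference between these responses also gave 0 members, against 0.115% of all genes, with 0 at an unadjusted p under 0.05, against 3.73%. Over the members, the differences between RA839 and DMSO ran from -0.66 to 0.51 in WT cells and from -0.25 to 0.22 in KO cells, with medians of -0.027 and -0.011.

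Arrays of the same number shared deviations between RA839 and DMSO, and with the array number as a block 3 members passed in WT cells. They were Slc43a2, Slc7a3 and Slc6a12, or 5.08%, against 2.67% of all genes. Slc43a2 had 12.70, 13.08, 12.83 and 12.83 with RA839, against 12.34, 12.10, 12.57 and 12.38 with DMSO, higher on every array and by most on array 2, the number whose RA839 array has the large Gapdh 3′ to 5′ difference. The difference was 0.51 ± 0.30 without the block (limma adjusted p = 0.586) and 0.51 ± 0.11 with it (limma adjusted p = 0.0393). The cationic carrier Slc7a3 had 6.49, 6.94, 6.66 and 6.74 with RA839, against 6.21, 6.40, 6.19 and 6.08 with DMSO, a difference of 0.49 ± 0.39 without the block (limma adjusted p = 0.70) and 0.49 ± 0.07 with it (limma adjusted p = 0.00959). With the block and without both WT arrays numbered 2, Slc43a2 stood at 0.36 ± 0.05 (limma adjusted p = 0.0160) and Slc7a3 at 0.47 ± 0.08 (limma adjusted p = 0.0206).

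Slc6a12, the carrier of betaine and GABA, went down. It had 9.22, 8.48, 9.50 and 9.93 with RA839, against 9.87, 9.33, 10.11 and 10.48 with DMSO, and each RA839 array was below the DMSO array of the same number. The difference was -0.66 ± 0.27 without the block (limma adjusted p = 0.389) and -0.66 ± 0.07 with it (limma adjusted p = 0.00131). With the block and without both WT arrays numbered 2 it was -0.60 ± 0.05 (limma adjusted p = 0.00231), and the same 3 members passed, against 3.86% of all genes. In KO cells the same gene had 9.88, 10.00, 9.60 and 9.69 with RA839, against 10.04, 10.13, 9.62 and 9.72 with DMSO. It was the 1 member whose response differed between KO and WT with the block, by 0.58 (limma adjusted p = 0.0472; all genes 0.363%), and by 0.52 without both WT arrays numbered 2 (limma adjusted p = 0.0293), where without the block the difference did not pass (limma adjusted p = 1). Groups of arrays that did not overlap in WT cells were few: 3 members lay wholly above DMSO with RA839 (Slc43a2, Slc6a5 and Slc7a3), against 3.4% of all genes, and Slc36a1 lay wholly below, against 2.39%. In KO cells the lysosomal arginine sensor Slc38a9 lay wholly above, against 1.19% of all genes, and none lay wholly below, against 0.923%.

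Of the carriers followed in every comparison, RA839 in WT cells moved Slc1a4 by 0.17 ± 0.26, Slc38a2 by 0.09 ± 0.16, Slc7a1 by 0.05 ± 0.10, Slc7a5 by -0.03 ± 0.27, Slc7a2 by -0.03 ± 0.12 and Slc1a5 by -0.08 ± 0.21. None of these passed (limma adjusted p of 0.858 to 0.979), and each difference was below its own standard error. The same estimates in KO cells lay between -0.16 and 0.08. The standard errors come from a spread that includes the pairs of KO arrays. Fitted on the WT arrays alone, still no member passed.

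Knockdown of Keap1 changed more members than RA839 did by count, although the experiments differ in agent and time. With siKeap1-1, 10 members were higher and 2 lower than with siControl (20.3% of members), against 15.1% of all genes called (8.67% higher and 6.39% lower). With siKeap1-2, 7 were higher and 2 lower (15.3% of members), against 11.2% of all genes (6.32% higher and 4.89% lower). The median difference was 0.075 over members and 0.016 over all genes for siKeap1-1, and 0.052 and 0.027 for siKeap1-2. Without siControl array 1 the members' medians were 0.039 and 0.020, and without siControl array 3 the siKeap1-1 median was 0.040. With siKeap1-1, 12 members lay wholly above siControl and 3 wholly below, against 11.5% and 8.5% of all genes. With siKeap1-2 these were 8 and 4 members, against 11.7% and 8.84%. Both comparisons use the same siControl arrays, so they are given side by side and are not independent. With the array number as a block, siKeap1-1 had 15 members higher and 3 lower (30.5%, against 24% of all genes) and siKeap1-2 had 9 higher and 5 lower (23.7%, against 20.4%). Without array 4 of every group, siKeap1-1 had 8 higher and 2 lower (16.9%, against 11.3%) and siKeap1-2 had 2 higher and 2 lower (6.78%, against 7.51%).

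Slc6a4 rose most. It had 8.77, 9.04, 9.12 and 9.75 with siKeap1-1 and 8.94, 9.35, 9.81 and 10.46 with siKeap1-2, against 7.90, 7.65, 7.70 and 8.48 with siControl. Every knockdown array was above every control array. The difference was 1.24 ± 0.31 for siKeap1-1 (2.36-fold, limma adjusted p = 0.0186) and 1.71 ± 0.31 for siKeap1-2 (3.26-fold, limma adjusted p = 0.00395). For siKeap1-1 the call was lost without siControl array 2 or 3, with limma adjusted p-values up to 0.0567.

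Slc36a2 rose with both siRNAs too. It had 11.84, 12.41, 12.51 and 12.44 with siKeap1-1 and 12.22, 12.57, 12.87 and 12.75 with siKeap1-2, against 11.02, 11.49, 11.75 and 11.29 with siControl. The knockdown arrays all lay above the control arrays, by 0.91 ± 0.19 for siKeap1-1 (limma adjusted p = 0.00670) and 1.21 ± 0.19 for siKeap1-2 (limma adjusted p = 0.00150). Without the arrays numbered 4 the siKeap1-1 difference was 0.83 and narrowly missed the threshold (limma adjusted p = 0.0607).

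Slc6a3 had 7.40, 7.64, 7.0 and 7.37 with siKeap1-1 and 7.45, 7.18, 6.82 and 6.90 with siKeap1-2, against 6.62, 6.70, 6.15 and 6.56 with siControl. All knockdown arrays were above all control arrays. The difference was 0.84 ± 0.17 for siKeap1-1 (limma adjusted p = 0.00521) and 0.58 ± 0.17 for siKeap1-2 (limma adjusted p = 0.0462). The siKeap1-2 call was close to the threshold: it ended when any 1 of 8 of the 12 arrays was left out (siControl 1 to 4, siKeap1-1 1 and 4, siKeap1-2 1 and 2), with limma adjusted p-values up to 0.122, and without all arrays numbered 4 (0.66, limma adjusted p = 0.108).

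Slc43a2 had 12.90, 13.08, 13.32 and 13.25 with siKeap1-1 and 12.82, 13.08, 13.26 and 13.31 with siKeap1-2, against 12.32, 12.52, 12.67 and 12.79 with siControl. All knockdown arrays again lay above the control arrays, by 0.56 ± 0.13 (limma adjusted p = 0.0131) and 0.54 ± 0.13 (limma adjusted p = 0.0209). For siKeap1-2 the call ended without siControl array 1 or 2 or siKeap1-2 array 3 or 4 (limma adjusted p up to 0.0630), and without all arrays numbered 4 (0.55, limma adjusted p = 0.0558). A second probe set of Slc43a2 rose by 0.46 with siKeap1-1 and by 1.00 with siKeap1-2. Slc7a4 was called with siKeap1-1 (0.42 ± 0.10, limma adjusted p = 0.0150) and not with siKeap1-2 (0.16 ± 0.10, limma adjusted p = 0.358). With the mean of all its probe sets the siKeap1-1 call was lost (0.41, limma adjusted p = 0.0661).

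Among carriers of neutral amino acids, Slc7a5 separated all 3 groups. This exchanger brings leucine and other large neutral amino acids into the cell in return for glutamine. It had 8.19, 8.21, 8.45 and 8.28 with siKeap1-1 and 7.86, 7.88, 7.72 and 7.84 with siKeap1-2, against 7.54, 7.46, 7.14 and 7.33 with siControl. No array of 1 group overlapped another group. The difference from siControl was 0.92 ± 0.09 for siKeap1-1 (1.89-fold, limma adjusted p = 3.79e-05) and 0.46 ± 0.09 for siKeap1-2 (1.37-fold, limma adjusted p = 0.00589), and siKeap1-1 was above siKeap1-2 by 0.46 ± 0.09 (limma adjusted p = 0.00815). Without the arrays numbered 4, siKeap1-2 against siControl stood at 0.44 (limma adjusted p = 0.0566) and siKeap1-1 against siKeap1-2 at 0.47 (limma adjusted p = 0.0592). Slc3a2, the heavy chain that Slc7a5 needs at the membrane, was higher with siKeap1-1 by 0.35 ± 0.05 (limma adjusted p = 0.000765) and differed by 0.17 with siKeap1-2, which was not called.

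Several carriers responded to 1 siRNA only by the test, and the siRNAs themselves were compared for each. Slc1a5, the sodium-coupled exchanger of glutamine, had 9.70, 9.81, 10.15 and 9.93 with siKeap1-1 and 9.19, 9.23, 9.28 and 9.25 with siKeap1-2, against 9.40, 9.19, 9.34 and 9.45 with siControl. It rose with siKeap1-1 by 0.55 ± 0.09 (limma adjusted p = 0.00147), while siKeap1-2 gave -0.10 ± 0.09 (limma adjusted p = 0.534), and siKeap1-1 exceeded siKeap1-2 by 0.66 ± 0.09 (limma adjusted p = 0.00118). Slc7a1, the cationic carrier found in most cells, had 12.96, 12.68, 12.65 and 12.72 with siKeap1-1 and 13.31, 13.23, 13.15 and 13.17 with siKeap1-2, against 13.29, 13.17, 13.06 and 13.05 with siControl. It fell with siKeap1-1 by 0.39 on the log2 scale (SE 0.08, limma adjusted p = 0.00561) and differed by 0.07 ± 0.08 with siKeap1-2 (limma adjusted p = 0.659). The difference between the siRNAs was -0.46 ± 0.08 (limma adjusted p = 0.00423). With the mean of all probe sets in place of the brightest, both Slc7a1 calls were lost (-0.19, limma adjusted p = 0.239, and -0.25, limma adjusted p = 0.171). That mean weighs probe sets of unlike level alike, and those of Slc7a1 averaged 13.43, 10.33 and 4.23 over the 28 arrays.

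Slc38a2 was called against siControl with siKeap1-2 only. It had 10.70, 10.61, 10.76 and 10.68 with siKeap1-1 and 10.35, 10.34, 10.19 and 10.30 with siKeap1-2, against 10.76, 10.66, 10.66 and 10.81 with siControl. It fell with siKeap1-2 by 0.43 on the log2 scale (SE 0.06, limma adjusted p = 0.000565), differed by -0.04 ± 0.06 with siKeap1-1 (limma adjusted p = 0.756), and was 0.39 ± 0.06 higher with siKeap1-1 than with siKeap1-2 (limma adjusted p = 0.00197). That last call was lost with the mean of all probe sets (0.12, limma adjusted p = 0.264), which averaged 11.70, 8.15 and 6.33 over the 28 arrays. Slc1a4, a sodium-coupled carrier of alanine, serine and cysteine, had 8.26, 7.81, 8.35 and 8.05 with siKeap1-1 and 8.42, 8.49, 8.51 and 8.88 with siKeap1-2, against 8.0, 8.19, 7.72 and 7.35 with siControl. It was called with siKeap1-2 (0.76 ± 0.18, limma adjusted p = 0.0159) and not with siKeap1-1 (0.31 ± 0.18, limma adjusted p = 0.304), and the siRNAs did not differ past the threshold (-0.46 ± 0.18, limma adjusted p = 0.166). The Slc1a4 call rested on 1 probe set that can match more than 1 transcript. Without probe sets of that kind the difference was 0.05 (limma adjusted p = 0.811), and without the arrays numbered 4 it was 0.50 (limma adjusted p = 0.0875).

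Slc7a8 fell with both siRNAs. It had 7.77, 7.90, 8.02 and 7.81 with siKeap1-1 and 7.68, 7.55, 7.43 and 7.58 with siKeap1-2, against 8.24, 8.26, 8.32 and 8.21 with siControl. The control arrays lay above all knockdown arrays, and the difference was -0.38 ± 0.07 for siKeap1-1 (limma adjusted p = 0.00254) and -0.70 ± 0.07 for siKeap1-2 (limma adjusted p = 4.76e-05). Between the siRNAs it was 0.32 ± 0.07 higher with siKeap1-1 (limma adjusted p = 0.0140). That call was lost in a fit of the 8 arrays of these groups (limma adjusted p = 0.0548) and without the arrays numbered 4 (0.35, limma adjusted p = 0.0582).

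Slc6a12 had 10.51, 10.56, 10.56 and 10.39 with siKeap1-1 and 10.51, 10.48, 10.30 and 10.27 with siKeap1-2, against 10.25, 10.04, 10.06 and 10.02 with siControl. It rose by 0.41 ± 0.08 with siKeap1-1 (limma adjusted p = 0.00310) and by 0.30 ± 0.08 with siKeap1-2 (limma adjusted p = 0.0256). The siKeap1-2 call was lost without siControl array 2, 3 or 4 or siKeap1-2 array 1 or 2 (limma adjusted p up to 0.0819), and without the arrays numbered 4 (0.32, limma adjusted p = 0.0540). The remaining rises with siKeap1-1 were small, 0.27 for the glutamine carrier Slc38a3 (limma adjusted p = 0.0335) and 0.23 for Slc7a13 (limma adjusted p = 0.0342).

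Slc7a2 varied more by array number than by siRNA. It had 10.30, 9.94, 9.89 and 9.09 with siKeap1-1 and 10.63, 10.45, 10.18 and 9.60 with siKeap1-2, against 10.66, 10.30, 10.20 and 9.70 with siControl. Within every group array 4, from the cells with Y-linked RNA, was the lowest. The difference of -0.41 ± 0.28 between siKeap1-1 and siControl did not pass (limma adjusted p = 0.402), whereas siKeap1-1 was below siControl on each of the 4 numbers and the block gave -0.41 ± 0.06 (limma adjusted p = 0.00167). With siKeap1-2 the difference was 0.00 ± 0.28 (limma adjusted p = 0.999). Between the siRNAs it was -0.41 ± 0.28 (limma adjusted p = 0.483), and the block brought a call (limma adjusted p = 0.00321). The glutamate carrier Slc1a3 showed the widest such gap, with 5.53 on array 4 of siKeap1-1, 5.33 on array 4 of siKeap1-2 and 5.76 on array 4 of siControl, against 7.66 to 8.59 on arrays 1 to 3 of the siRNA groups.

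**Figure D3:**
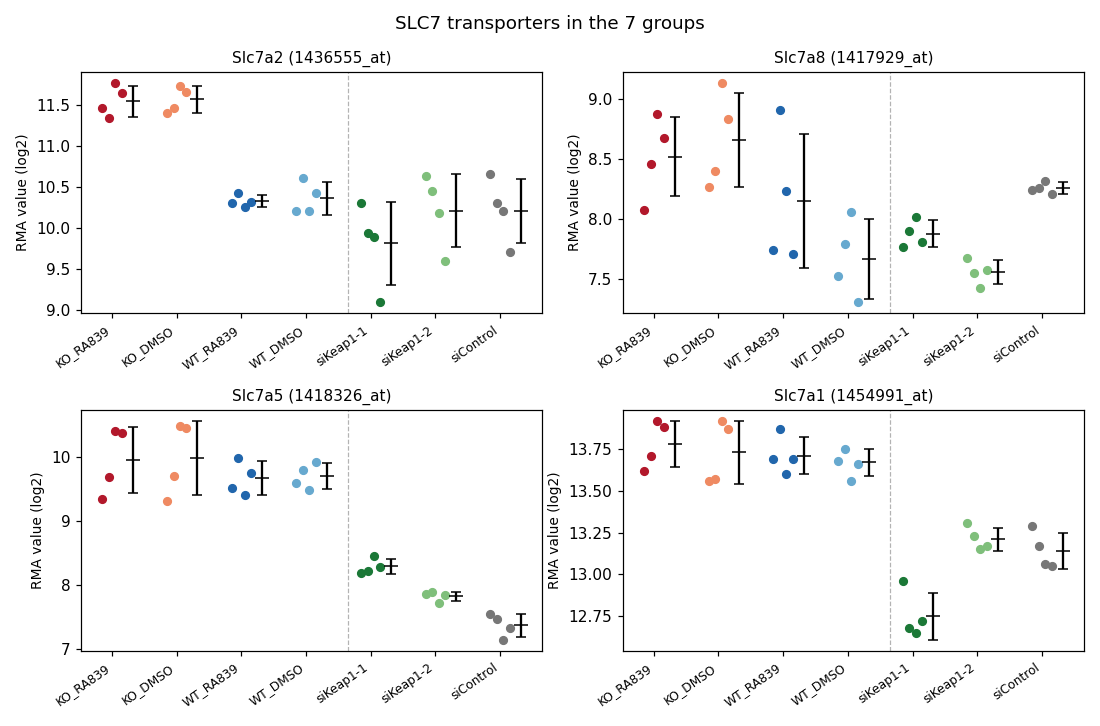
Deposited log2 value (y axis) of Slc7a2, Slc7a8, Slc7a5 and Slc7a1 on each array, by group, with arrays 1 to 4 of a group side by side and black bars for mean ± SD (n = 4). The dashed line separates the compound from the siRNA experiment. Slc7a2 is at 11.34 to 11.77 on the KO arrays and at 10.20 to 10.61 on the WT arrays, Slc7a5 separates all 3 siRNA groups, and Slc7a1 is lower with siKeap1-1 at 12.65 to 12.96.

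Set against each other directly, siKeap1-1 and siKeap1-2 differed in 6 members (10.2%), 5 higher and 1 lower with siKeap1-1, against 7.45% of all genes (3.57% higher and 3.88% lower). Beside Slc1a5, Slc7a5, Slc38a2, Slc7a8 and Slc7a1, the sixth was Slc7a6. It had 9.84, 9.94, 9.90 and 9.64 with siKeap1-1, against 9.02, 9.33, 9.49 and 8.96 with siKeap1-2, a difference of 0.63 ± 0.12 (limma adjusted p = 0.00628). Its siControl arrays had 9.59, 9.56, 9.64 and 9.39, and neither siRNA passed against siControl. With the array number as a block both passed, in opposite directions, at 0.29 for siKeap1-1 (limma adjusted p = 0.0206) and -0.34 for siKeap1-2 (limma adjusted p = 0.0109). The arrays of siKeap1-1 lay wholly above those of siKeap1-2 for 7 members and wholly below for 2, against 6.44% and 6.75% of all genes. With the array number as a block 11 members differed between the siRNAs, 8 higher and 3 lower with siKeap1-1 (18.6%, against 14.6% of all genes). Macrophage markers moved with the knockdown. With siKeap1-1, 6 of 13 were lower and none higher (46.2%, against 15.1% of all genes called; median -0.324). With siKeap1-2, 7 were lower and none higher (53.8%, against 11.2%; median -0.432). The mean level of that list was 12.35 to 12.53 with siKeap1-1 and 12.24 to 12.39 with siKeap1-2, against 12.70 to 12.87 with siControl. Of 11 neutrophil markers, 3 were higher with siKeap1-1 (27.3%) and 2 with siKeap1-2 (18.2%) and none lower. Their summed log2 level was 70.7 to 79.8 and 71.5 to 81.5, against 70.1 to 80.1 with siControl. Of 10 fibroblast markers, 1 was higher with each siRNA (10%), and of 7 dendritic cell markers, 2 were lower with siKeap1-1 (28.6%). The T cell, B cell, mast cell and erythroid or megakaryocyte lists held no call with either siRNA. The part of these shifts in the members' values was not tested.

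The comparisons of genotype and of knockdown share no arrays and could be set side by side. Of the 14 members lower in KO cells with DMSO and the 10 higher with siKeap1-1, 4 were the same genes, Slc6a3, Slc6a4, Slc36a2 and Slc7a4, which is 28.6% of the first and 40% of the second list. Over all genes these shares were 21.2% and 33.8%. For siKeap1-2, 3 members were common (21.4% and 42.9%), against 17.4% and 38.1% over all genes. The members' shares were thus a little above those of all genes on small counts. Slc7a8 was the 1 member higher in KO cells with DMSO and lower with a Keap1 siRNA, and it was so with both siRNAs. Across the 59 members the differences had a Pearson correlation of -0.63 between KO against WT in DMSO and siKeap1-1 against siControl, and of -0.56 for siKeap1-2. Across all 18193 genes these were -0.38 and -0.33. Spearman's rho was -0.37 and -0.26 over the members and -0.27 and -0.21 over all genes, closer to 0 than Pearson's r for each. Genes of the same arrays are not independent replicates, and the values are a description.

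**Figure D4:**
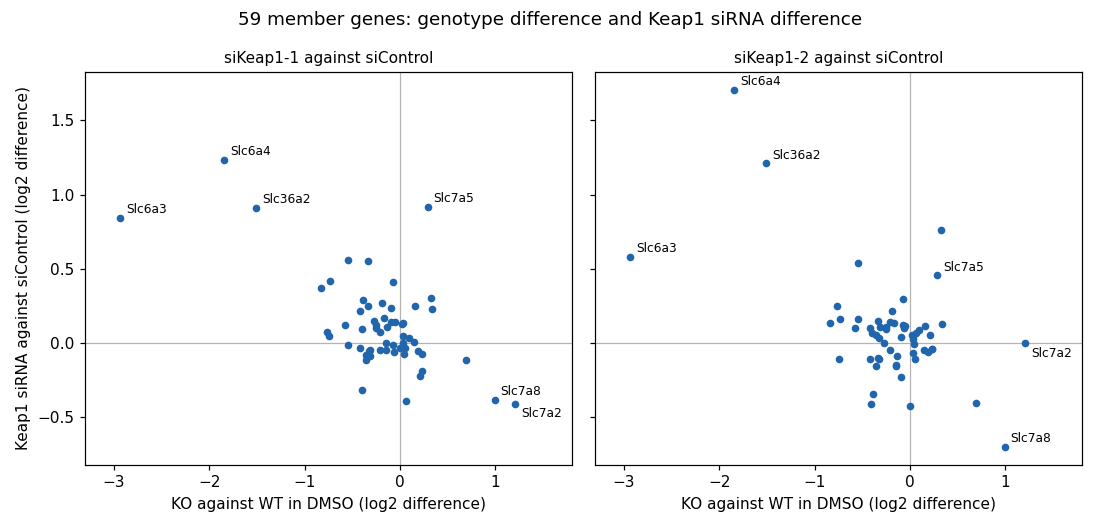
Each point is 1 of the 59 members, with its log2 difference between KO and WT in DMSO on the x axis and its log2 difference between a Keap1 siRNA and siControl on the y axis (siKeap1-1 left, siKeap1-2 right). Slc6a3, Slc6a4 and Slc36a2 lie at the upper left, lower in KO and higher with the siRNAs. Slc7a8 lies at the lower right, Slc7a2 far right, and most members lie near 0 on both axes.

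The pair of genes that the rule leaves out had larger differences than most members. Slc7a11, the cystine carrier, differed by -2.59 ± 0.23 between KO and WT in DMSO, by 1.25 ± 0.24 with siKeap1-1 and by 1.43 ± 0.24 with siKeap1-2, and Slc6a9, the glycine carrier, by -1.52 ± 0.21, 2.71 ± 0.13 and 2.66 ± 0.13.

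Transporters of amino acids in other families gave a mixed picture. Of 19 measured, 2 were higher and 3 lower in KO cells with DMSO (26.3%, against 25.1% of all genes), and 2 higher and 2 lower under RA839 (21.1%, against 30.4%). With siKeap1-1, 2 were higher and 3 lower (26.3%, against 15.1%), with siKeap1-2, 0 higher and 2 lower (10.5%, against 11.2%), and none passed with RA839 in WT or KO cells. Slc16a10, which lets aromatic amino acids cross without sodium, had 12.45, 12.53, 12.62 and 12.72 in KO cells with DMSO, against 11.54, 11.41, 11.66 and 11.38 in WT cells with DMSO. That is a rise of 1.08 ± 0.09 (limma adjusted p = 9.62e-07), and Slc16a10 was lower with siKeap1-1 (-0.36 ± 0.06, limma adjusted p = 0.00255) and siKeap1-2 (-0.44 ± 0.06, limma adjusted p = 0.000900). Slc25a12, the mitochondrial carrier of aspartate and glutamate, was lower in KO cells with DMSO (-0.73 ± 0.11, limma adjusted p = 0.000268) and higher with siKeap1-1 (0.42 ± 0.05, limma adjusted p = 0.000142). Slc66a1, which exports cationic amino acids from lysosomes, was lower in KO cells with DMSO (-0.54 ± 0.10, limma adjusted p = 0.000785).

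Genes known to be induced when amino acids run short were also counted. Of 28 measured, 1 was higher and 1 lower in KO cells with DMSO (7.14%, against 25.1% of all genes), and 1 higher and 4 lower under RA839 (17.9%, against 30.4%). With siKeap1-1, 2 were higher and 2 lower (14.3%, against 15.1%), with siKeap1-2, 3 higher and 0 lower (10.7%, against 11.2%), and none passed with RA839 in either genotype. Of these genes, 2 that rose with both siRNAs are given with values, and those that fell only by count. Eif4ebp1, which restrains translation, was higher with siKeap1-1 by 0.79 ± 0.08 (limma adjusted p = 4.17e-05) and with siKeap1-2 by 0.66 ± 0.08 (limma adjusted p = 0.000194). Atf5, a transcription factor of the stress response, was higher by 0.27 ± 0.06 (limma adjusted p = 0.00979) and 0.31 ± 0.06 (limma adjusted p = 0.00635).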

How the data were processed

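Macrophage RNA was hybridised to 28 Affymetrix arrays, 4 for each of 7 groups. The design text calls the 4 biological replicates; the labels do not say which arrays share an animal, so p-values measure the spread between these arrays. The authors deposited log2 values, 1 for each probe set on each array, from RMA (named in the submitters' processing notes, version unknown here). RMA summaries shrink differences of dim probe sets. Of 45101 probe sets, 9211 had no gene, 932 named several genes, and 34945 outside the 64 control probe sets named 1 gene. The probe set with the highest mean represented each of 18193 genes, chosen among several for 30 of the 59 members (119 member probe sets). All 59 matched the RefSeq table of GRCm38.p6.

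The compound and siRNA experiments were fitted separately (limma 3.58.1, R 4.3.3; a mean per group, lmFit and eBayes), two-sided, with Benjamini-Hochberg adjustment over all genes. The procedure was tested on simulated data. The members and lists were chosen with earlier results of these data known. Given with array values are the up to 8 largest rises and 8 largest falls past the threshold in each comparison, plus Slc7a2, Slc7a5, Slc7a1, Slc1a5, Slc38a2 and Slc1a4; Slc1a3, Slc6a13, Slc7a3, Slc7a6, Xist and Eif2s3y were added after their values were seen.

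The labels number the arrays of a group. Deviations of same-numbered arrays over all genes correlated at 0.27 to 0.46 in WT and at 0.66 to 0.70 in KO. In the siRNA groups the range was 0.12 to 0.66, and between KO and WT it was -0.29 to -0.01. Same-numbered arrays thus shared deviations within a genotype and within the siRNA experiment only. No correlation between arrays of different numbers was computed, so these values do not show that each number pairs single arrays. The pairs of KO arrays and the siRNA arrays numbered 4 enter these correlations. A block for the number, other normalizations, probe set choices, filters, priors and thresholds, and each array left out in turn were alternatives. Leaving out both WT arrays numbered 2, each pair of KO arrays or all siRNA arrays numbered 4 was added after seeing the data, as was the block without both WT arrays numbered 2. The number of arrays limits the precision. Promoter sequences are RefSeq's.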

Additional observations from a re-analysis of the deposited data

Results flagged for a closer look

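Among the members followed on every array, 126 groups of 4 arrays were screened for 1 array far from the other 3, and 5 were found; chance alone gives about 1 in 20 groups. Slc7a4 accounted for 3 of them. It read 7.41 on array 1 of the KO cells with DMSO, 0.20 above the next array in a group range of 0.23. It read 7.15 on array 4 of the KO cells with RA839, 0.10 below the next in a range of 0.11. It read 8.28 on array 3 of siKeap1-1, 0.38 above the next in a range of 0.39. Slc36a2 read 11.84 on array 1 of siKeap1-1, 0.57 below the next in a range of 0.67. Slc7a12, near the lower end of the array's range, read 3.15 on array 2 of siKeap1-1, 0.18 above the next in a range of 0.21. In a group of small spread such a gap can be small in absolute terms, as it is for Slc7a4 in KO cells and for Slc7a12.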

How the results depend on the processing

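Counts of members past the threshold moved by over 1.5 times in these cases. With the array number as a replicate block, RA839 in WT cells gave 3 members in place of 0, the difference of the responses 1 in place of 0, siKeap1-2 against siControl 14 in place of 9, and siKeap1-1 against siKeap1-2 11 in place of 6. The block without both WT arrays numbered 2 also gave 3 and 1 for the comparisons of RA839. The block has no positive correlation of same-numbered arrays behind it for KO against WT. There it gave 17 in place of 16 in DMSO (28.8%, against 26.8% of all genes) and 17 in place of 15 under RA839 (28.8%, against 32%). At an adjusted p under 0.01 the counts were 8 for KO against WT in DMSO, 9 under RA839, 7 for siKeap1-1 and 5 for siKeap1-2. Over the brighter genes only, KO against WT in DMSO gave 10, with 25 members tested. Without array 4 of every siRNA group, siKeap1-2 gave 4; that leaves 3 arrays a group. Leaving out 1 array at a time gave 13 to 17 for KO against WT in DMSO, 10 to 16 under RA839, 9 to 13 for siKeap1-1, 6 to 10 for siKeap1-2, 6 to 7 between the siRNAs and 0 for the comparisons of RA839. For the threshold of 0.01, the brighter genes and single arrays left out, no share of all genes is given. Those counts therefore do not set the members apart from the other genes.

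The median over members moved by more than the spread between arrays as follows. KO against WT in DMSO gave -0.092 after quantile normalization, -0.209 over the brighter genes, -0.098 with the mean of all probe sets, -0.249 without both WT arrays numbered 2, and -0.249 to -0.130 with 1 array left out, the first without WT array 2. Under RA839 the same settings gave -0.091, -0.222 and -0.103. For siKeap1-1 it was 0.045 after quantile normalization, 0.003 with arrays centred on their median, 0.134 over the brighter genes, and 0.039 to 0.103 with 1 array left out (0.039 without siControl array 1). For siKeap1-2 these values were 0.020, 0.003 and 0.019, and 0.020 to 0.075. Between the siRNAs it was 0.090 over the brighter genes, and for the difference of the RA839 responses 0.054 without KO arrays 3 and 4. Of the followed members' values, 25 changed sign under at least 1 setting. In 1 of these cases a call stood on either side, Slc38a2 in KO against WT in DMSO, near 0 with all arrays and 0.321 without KO arrays 1 and 2. Beside that, a call was lost 22 times and gained 6 times under a setting other than leaving out 1 array. Each value was counted once per setting, so the same value can enter more than once. The cause was not tested.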
